A study of Homo sapiens with 4 samples.

Results

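Interferons act on cells through cell-surface receptors built of paired chains, IFNAR1 with IFNAR2 for the type I interferons and IFNGR1 with IFNGR2 for interferon-gamma. The genes followed here are these receptor chains, the signal transducer STAT2 and the interferon regulatory factors IRF1, IRF3, IRF7 and IRF9. They were found as the probe sets annotated to exactly 1 of these 9 symbols. The search gave 10 probe sets for 8 genes, 4 receptor chains and 4 IRFs, among 19064 single-gene probe sets and 22277 in all. STAT2 was not analysed here. A further probe set that carries IRF9 together with its neighbour RNF31 was left out by the same rule.

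As background, a bound receptor activates the JAK kinases on its tails, which phosphorylate STAT proteins. After type I interferon, STAT2 joins another STAT and the DNA-binding subunit IRF9 in the complex ISGF3, which binds interferon-stimulated response elements (ISREs) of antiviral genes. Interferon-gamma acts mainly through STAT dimers that bind gamma-activated sites (GAS elements), of which the IRF1 gene carries a classical one. IRF3 is present in most cells and is activated by phosphorylation when viral nucleic acids are sensed, while IRF7 and IRF9 are themselves induced by interferon. In fibroblasts the type I receptor carries the antiviral response to interferon released by the same or neighbouring cells.

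Total RNA of BJ-TE cells was measured on Affymetrix arrays, with 1 array for each of 4 groups. BJ-TE derives from BJ, a human foreskin fibroblast culture. The groups were ns shRNA at 40% confluence, p73 shRNA at 40%, ns shRNA at 100% and p73 shRNA at 100%, where ns is the control hairpin and the other hairpin is directed at the transcription factor p73. All 4 groups carry a short hairpin RNA, and a single p73 hairpin in a single cell line was used.

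No group had a replicate array, so the spread behind every test comes from how far the hairpin effect differed between the stages of confluence, pooled over genes of like brightness. Every array had a mean intensity of about 500.1 after trimming 2% at either end. The number of arrays limits the precision. The probe set of TP73, the hairpin's target, lay at the floor on all arrays (intensities of 1.65 to 2.09) and gives no check of the labels. Of 15 fibroblast markers, all 15 lay above the brightness filter described below. Of 11 measured blood markers 2 did so, LAPTM5 and TCF4, and the highest intensity of the other 9, PTPRC and CD14 among them, was 49.8.

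Promoter sequences are shown for IRF9, the gene that rose with p73 shRNA, and for IRF1, because both hold the letters of a GAS element. RefSeq windows on GRCh38.p14, from 250 bases before to 50 bases after a gene start, were at hand for 5 of the 8 genes (IFNAR1, IFNGR1, IFNGR2, IRF1 and IRF9), with 7 windows in all. They were searched for a GAS-like motif, TTCNNNGAA, which reads the same on both strands, and an ISRE-like motif, GAAANNGAAA, on both strands. The motifs can share the letters GAA, but no window of these genes held both. In the following lines, 5′ to 3′ on the strand of the gene, capitals mark the GAS-like match. The IRF9 window is chr14:24161015-24161314 on the plus strand and the IRF1 window chr5:132490724-132491023 on the minus strand.
IRF9: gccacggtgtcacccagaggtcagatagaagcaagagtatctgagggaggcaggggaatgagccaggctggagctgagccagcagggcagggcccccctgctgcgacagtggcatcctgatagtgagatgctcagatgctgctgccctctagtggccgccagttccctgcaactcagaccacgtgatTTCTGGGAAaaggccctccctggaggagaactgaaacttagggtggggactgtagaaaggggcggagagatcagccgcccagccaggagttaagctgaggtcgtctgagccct
IRF1: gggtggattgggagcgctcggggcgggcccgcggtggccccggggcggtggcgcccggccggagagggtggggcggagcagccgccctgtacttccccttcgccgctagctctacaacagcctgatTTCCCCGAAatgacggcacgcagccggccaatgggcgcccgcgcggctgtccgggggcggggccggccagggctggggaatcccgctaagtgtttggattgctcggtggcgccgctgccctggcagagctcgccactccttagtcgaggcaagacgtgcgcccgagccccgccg
The match begins 63 bases before the gene start in IRF9 and 124 bases before it in IRF1. Of 35116 promoter windows of this length, 7.66% hold the GAS-like letters and 3.57% the ISRE-like letters. None of the 7 windows held the ISRE-like letters, and the 5 windows of IFNAR1, IFNGR1 and IFNGR2 held neither motif. A match is a run of letters in the window and no measure of binding.

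Values were compared as log2(intensity + 11.5), a scale that understates ratios of dim genes. Genes were tested when their brightest probe set averaged at least 6.94 on this scale, an intensity of about 111, which left 6759 of 11963 genes. Of the 8 genes, 7 passed this filter and IFNAR1 did not. The additive limma model takes confluence and hairpin as factors over all 4 arrays, and a gene was called when its adjusted p (Benjamini-Hochberg over the 6759 genes) was below 0.05.

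The first comparison asks what differs in cells that carry the hairpin against p73. IRF9 rose with p73 shRNA, by 1.59-fold at 40% confluence and 1.56-fold at 100%. IRF7 and IRF1 were higher at both stages without passing the test. The 3 receptor chains tested and IRF3 did not pass it either. By limma 1 of the 7 genes was called higher, 0 lower and 6 not called, and 2 had an unadjusted p below 0.05, IRF9 and IRF7, both higher. An unadjusted p below 0.05 was reached by 13.6% of all genes tested. Over all genes tested 1.14% rose and 1.58% fell. In bulk RNA, fewer cells that express a gene and less RNA per cell cannot be told apart.

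IRF9, the subunit of ISGF3 that recognises DNA, had intensities of 479 on the ns and 761 on the p73 shRNA array of sparse cells, and of 632 and 987 on those of confluent cells. Both p73 shRNA arrays were above both control arrays, so the hairpin groups did not overlap. Of all genes tested 29.0% were higher with p73 shRNA at both stages, and the share without overlap was not counted. The log2 ratio of IRF9 was 0.66 at 40% and 0.63 at 100%. The average was 0.64 (SE 0.17, 95% interval 0.30 to 0.99, limma adjusted p 0.0133). The call held in 5 of 9 alternative settings, over which the limma adjusted p ranged from 0.0132 to 1, and was lost without the intensity trend (0.0972). The ns shRNA array at 40% had brighter ribosomal RNA control probe sets (median intensity 638 against 272 to 340 on the others), and the p73 shRNA array at 40% had the brightest upper end (99th percentile 13157 against 10196 to 11420). At 100% the 99th percentile was 10196 on the ns and 10869 on the p73 shRNA array, and the ribosomal RNA control median 340 and 281. The part of these array differences in the ratio at either stage was not tested.

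IRF7, the factor that amplifies interferon production once induced, had intensities of 195 (ns) and 294 (p73 shRNA) in sparse cells and of 318 and 444 in confluent cells. It was higher with p73 shRNA at each stage, by 0.57 and 0.47 on the log2 scale, but the control at 100% was above the p73 shRNA array at 40%, so the hairpin groups overlapped. The average was 0.52 (SE 0.22, 95% interval 0.09 to 0.94), and it did not pass the test over all genes (limma adjusted p 0.212). Over the 8 alternatives that gave it a value, the adjusted p was 0.209 to 1.

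IRF1, a transcription factor induced by interferon-gamma and by inflammatory signals, had intensities of 238 (ns) and 295 (p73 shRNA) at 40% and of 324 and 402 at 100%. Its log2 ratio was 0.30 at either stage, with a 95% interval of -0.12 to 0.72 for the average (limma adjusted p 0.607). IRF3, the factor that needs activation rather than new synthesis, had intensities of 829 (ns), 755 (p73 shRNA) at 40% and 895 and 898 at 100%. Its 4 values were the closest together among the tested genes, and its log2 ratios were -0.13 at 40% and 0.01 at 100%. The interval of its average, -0.39 to 0.27, does not reach the 0.64 of IRF9.

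Among the receptor chains, IFNGR1, which binds interferon-gamma, had intensities of 1564 (ns) and 1333 (p73 shRNA) at 40% and of 2011 and 1739 at 100%. It was lower with p73 shRNA by -0.23 and -0.21 on the log2 scale (average -0.22, SE 0.15, limma adjusted p 0.583). A second IFNGR1 probe set was also lower at both stages, by -0.37 and -0.36, with an adjusted p of 0.329 when every probe set was fitted as its own row in limma. IFNGR2, the signalling partner chain, had intensities of 1156 (ns) and 1351 (p73 shRNA) at 40% and of 1673 and 1588 at 100%. Its ratios were 0.22 and -0.07, of opposite sign, and its average of 0.07 had a 95% interval of -0.23 to 0.38.

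IFNAR2, the chain of the type I receptor that binds interferon most tightly, had intensities of 295 (ns) and 301 (p73 shRNA) at 40% and of 615 and 395 at 100%. At 40% both arrays gave nearly the same value, whereas at 100% the p73 shRNA array was lower, and the log2 ratios were 0.02 and -0.62. A second IFNAR2 probe set had intensities of 179 and 166 at 40% and of 283 and 225 at 100%, with ratios of -0.10 and -0.31. The average of the brighter probe set was -0.30 (SE 0.20, limma adjusted p 0.567). How far the hairpin ratio differed between stages has no test, since each group is 1 array. IFNAR1, the other chain of this receptor, had intensities of 87.5 (ns) and 69.1 (p73 shRNA) at 40% and of 95.1 and 103 at 100%, all below the filter. The filter says nothing on whether IFNAR1 is expressed or differs.

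**Figure D1:**
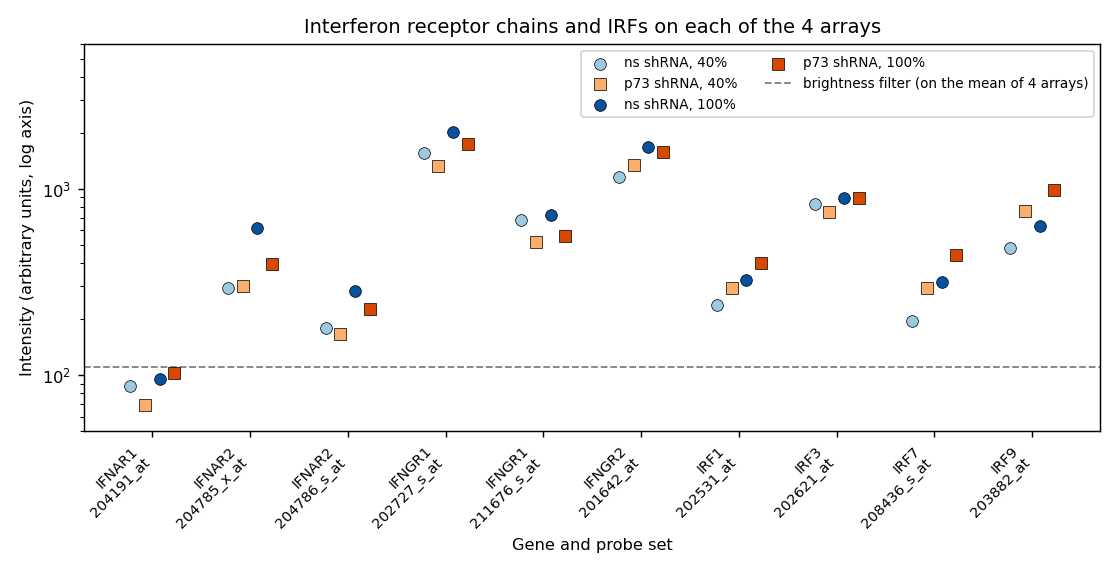
Intensity (log axis) of the 10 probe sets of the 8 genes on each of the 4 arrays, circles for ns shRNA and squares for p73 shRNA, light for 40% and dark for 100% confluence. The dashed line is the brightness filter at about 111. IRF9 has both squares above both circles, IFNAR2 is highest with ns shRNA at 100% (615 on its brighter probe set), and IFNAR1 stays below the line.

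The effect of the growth stage, which the study's design names, was taken from the arrays at 100% against those at 40%, with the hairpins as repeats. IFNAR2, IFNGR1, IFNGR2 and IRF7 rose at confluence, by 1.18-fold to 2.08-fold with single hairpins. In all, 4 of 7 genes rose, 0 fell and 3 did not pass in limma, and 6 of the 7 had an unadjusted p below 0.05, as did 44.7% of all genes tested. Over all genes tested 20.4% rose and 16.1% fell, and with 7 genes a share above that background is a description only. All 7 were higher at confluence with both hairpins, as were 39.2% of all genes tested. The share of all genes whose stages did not overlap was not counted, so stages that lie apart are a description only. The median log2 ratio of the 7 genes was 0.38, against 0.01 over all genes tested.

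IFNAR2 was higher at confluence by 2.08-fold with ns shRNA and 1.32-fold with p73 shRNA, and both arrays at 100% lay above both at 40%. The average log2 ratio was 0.71 (SE 0.20, 95% interval 0.31 to 1.10, limma adjusted p 0.00254). Its single ratios were 1.03 with ns shRNA and 0.38 with p73 shRNA. The SE and interval use the average error at this brightness and not the spread of IFNAR2 itself. The second probe set was higher by 0.63 and 0.42 (average 0.52, limma adjusted p 0.0821 with every probe set as a row). The call on the brighter probe set held in 6 of the 8 alternatives that gave it a value.

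IRF7 was higher at confluence by 1.63-fold with ns shRNA and 1.51-fold with p73 shRNA. Its 4 values run from ns shRNA at 40% through p73 shRNA at 40% and ns shRNA at 100% to p73 shRNA at 100%, and both stages stay apart although the middle values are close. The average log2 ratio was 0.63 (SE 0.22, limma adjusted p 0.015), a call that held in 6 of 8 alternatives. The blood marker TCF4, a transcription factor of plasmacytoid dendritic cells that fibroblasts also express, was higher at confluence as well (intensity 1172 and 1486 at 40%, 3053 and 3309 at 100%). The summed intensity of the 11 measured blood markers was 1846 and 2316 at 40% and 4043 and 4240 at 100%, most of it from TCF4 and LAPTM5. LAPTM5 had intensities of 602 (ns) and 749 (p73 shRNA) at 40% and of 815 and 813 at 100%. The other 9 markers reached at most 49.8 on any array. LILRA4, a defining marker of those cells, lay between 5.1 and 18.1, and IL3RA between 3.2 and 5.4. The part of these markers in the result for IRF7 was not tested.

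The receptor chains for interferon-gamma changed less. IFNGR1 was higher by 0.36 with ns shRNA and 0.38 with p73 shRNA, which averaged 0.37 (SE 0.15, limma adjusted p 0.0421). IFNGR2 was higher by 0.53 and 0.23, which averaged 0.38 (SE 0.15, limma adjusted p 0.0405). Both stages were apart for each of these brighter probe sets. The second IFNGR1 probe set was higher by only 0.08 and 0.09 (average 0.09, limma adjusted p 0.733 with every probe set as a row), with the stages overlapping, so the 2 probe sets of this gene differ in size of change. Without the intensity trend both calls were lost (limma adjusted p 0.117 for IFNGR1 and 0.116 for IFNGR2). Over 9 alternatives the adjusted p ran from 0.0369 to 0.199 for IFNGR1 and from 0.0379 to 0.116 for IFNGR2.

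The other IRFs did not pass. IRF1 was higher by 0.43 with either hairpin (SE 0.22 of the average, limma adjusted p 0.103), IRF9 by 0.39 and 0.37 (average 0.38, SE 0.17, limma adjusted p 0.0737), and IRF3 by 0.11 and 0.25 (average 0.18, limma adjusted p 0.435). For IRF9 the control at 100% lay below the p73 shRNA array at 40%, so the stages overlapped. IRF9 was thus ordered by hairpin first and IRF7 and IRF1 by stage first, although each was lowest with ns shRNA at 40% and highest with p73 shRNA at 100%. With 1 array a group no spread can be given for neighbours in these orders.

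**Figure D2:**
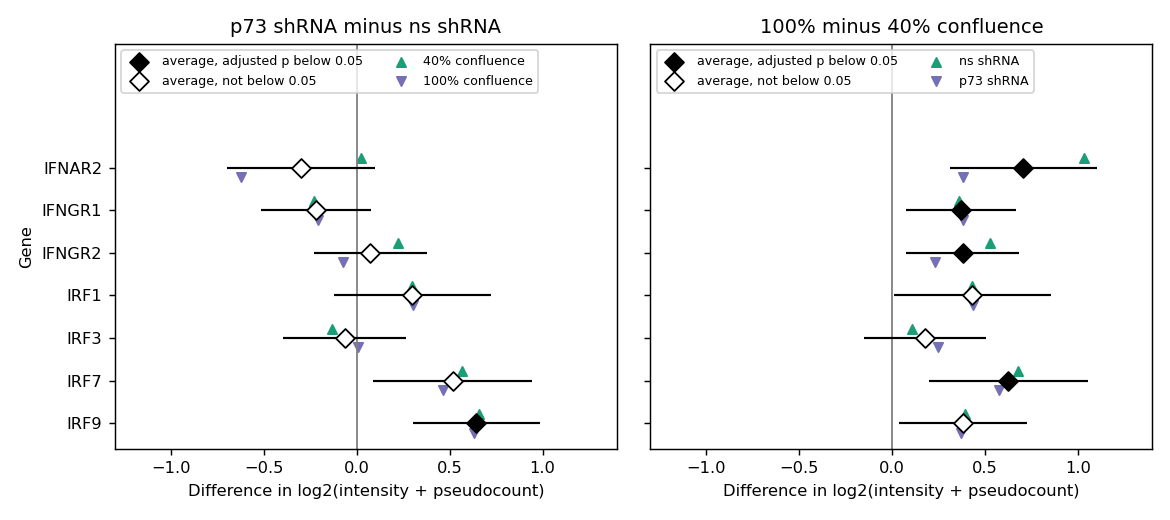
Differences in log2(intensity + pseudocount) of the 7 genes above the filter, p73 shRNA minus ns shRNA on the left and 100% minus 40% confluence on the right. Diamonds are averages of the additive model with 95% intervals as bars, filled where the limma adjusted p is below 0.05, and triangles are the single ratios that were averaged. On the left only IRF9 is filled, at 0.64, and on the right IFNAR2 (0.71), IRF7 (0.63), IFNGR1 (0.37) and IFNGR2 (0.38) are.

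The rest of the pathway was described from 8 gene lists. As background for each list, 20.4% of all genes tested were called higher and 16.1% lower at confluence. With p73 shRNA these shares were 1.14% and 1.58%. All 14 measured interferon genes, of type I and interferon-gamma, lay below the filter on the mean of the arrays, with intensities of 0.57 to 86.7. Of 6 measured JAK kinases and further receptor chains, 3 were tested and none passed with p73 shRNA. JAK1, the kinase shared by the type I and gamma receptors, rose at confluence: its intensity was 2480 (ns) and 2481 (p73 shRNA) in sparse cells and 4157 and 3550 in confluent ones (average log2 ratio 0.63, limma adjusted p 9.23e-05). IL10RB, a receptor chain shared by interleukin-10 and interferon-lambda whose gene lies between IFNAR2 and IFNAR1 in the receptor cluster on chromosome 21, rose too (average 0.65, limma adjusted p 0.000461). IFNAR2, IL10RB and IFNGR2 of this cluster thus rose at confluence. IFNAR1, below the filter and without a test in the main fit, had log2 ratios of 0.11 with ns shRNA and 0.51 with p73 shRNA. The p73 shRNA ratio of IL10RB at 100% was 0.32 where that of IFNAR2 was -0.62. TYK2, the kinase bound to IFNAR1, did not pass at confluence (average 0.38, limma adjusted p 0.065).

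Of 3 further STATs tested, none passed in either comparison. STAT3, the mediator of interleukin-6 signals, had an average of 0.06 with p73 shRNA and of 0.36 at confluence (limma adjusted p 0.0514). Of 5 further IRF genes and IRF-binding proteins measured, only IRF2, a factor that shares binding sites with IRF1, lay above the filter. IRF2 rose at confluence, from 136 (ns) and 122 (p73 shRNA) in sparse cells to 264 and 378 in confluent ones (average 1.22, limma adjusted p 9.68e-06). Its p73 shRNA ratios were -0.15 and 0.50.

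Among 11 tested negative regulators 1 rose with p73 shRNA and 0 fell, against 1.14% and 1.58% of all genes tested. It was UBE2L6 (average 0.59, limma adjusted p 0.0189), the conjugating enzyme of ISG15, which is itself no inhibitor of the receptor, and its call was lost after quantile normalization (limma adjusted p 0.052) and with no intensity trend (0.159). USP18, which binds IFNAR2 and dampens type I signalling, had intensities of 82.3 (ns) and 163 (p73 shRNA) at 40% and of 121 and 207 at 100%. The average ratio of USP18 was 0.81 and did not pass (limma adjusted p 0.0993, and 0.153 after quantile normalization), but was called with no intensity trend (0.0312). PTPN2 of the same list averaged -0.47 and did not pass either (limma adjusted p 0.0945, and 0.353 with no intensity trend). The ratios of PTPN2 were -0.88 at 40% and -0.07 at 100%. At confluence 3 of the 11 rose, as did 20.4% of all genes tested. They were SOCS1, an inhibitor of JAK kinases (average 1.34), UBE2L6 (0.57) and PIAS3, an inhibitor of STAT3 (0.57). SOCS1 had intensities of 244 (ns) and 179 (p73 shRNA) at 40% and of 504 and 591 at 100%.

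Of 11 adaptors and kinases upstream of IRF3 and IRF7, none passed with p73 shRNA. TBK1, the kinase of IRF3, averaged -0.09 and the adaptor MAVS -0.20. At confluence the TBK1-binding adaptors AZI2 (0.90) and TANK (0.48) rose, and TRAF6 (-0.80) and IRAK1 (-0.76), which link Toll-like receptors to IRF7, fell. Calls were thus 2 higher and 2 lower of 11, against 20.4% and 16.1% of all genes tested. The call of TANK was lost with no intensity trend (limma adjusted p 0.0565).

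The lists of target genes were chosen with earlier results of these arrays known, so their counts are no independent evidence of direction. Of 38 tested targets of ISGF3, 19 were called higher with p73 shRNA, 0 lower and 19 not called. The shares over all genes tested were 1.14% higher and 1.58% lower. Called or not, 30 of the 38 were higher with p73 shRNA at both stages, as were 29.0% of all genes tested. The median log2 ratio of the 38 targets was 0.40 at 40% and 0.72 at 100%. IRF9 itself did not follow that difference between stages, at 0.66 and 0.63, nor did IRF7, at 0.57 and 0.47, a contrast that has no test. OAS1, which makes the activator of RNase L, averaged 1.64 and the antiviral GTPase MX1 1.47, each above the 0.64 of IRF9. With quantile-normalized arrays 17 ISGF3 targets rose, and 9 did so with no intensity trend in limma. In other settings the targets were not counted. Over all genes, 17 rose with the mean of probe sets, 1 without the brightness filter and 0 with confluence left out. The targets called in these settings cannot exceed those counts.

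Of 20 tested targets of interferon-gamma, GAS elements or IRF1, 3 rose with p73 shRNA, TAP2 (0.86), PSMB9 (0.54) and PSME1 (0.49), and 0 fell. These genes serve peptide loading of MHC class I and the immunoproteasome. Quantile normalization left 0 of these calls and the fit with no intensity trend 1. Among all genes tested 1.14% were called higher with p73 shRNA. At confluence 12 of the 20 rose and 0 fell, among them GBP2 (1.41), IFI16 (1.35), TAPBP (1.19) and CASP1 (1.14). Of the ISGF3 targets 23 of 38 rose at confluence and 0 fell, with IFITM1 (2.06), IFIH1 (2.02), DDX60 (1.39) and LGALS3BP (1.34) highest. With ns shRNA IFIH1 was higher by 1.13 and DDX60 by 0.86, and with p73 shRNA by 2.92 and 1.92. At 40% confluence IFIH1 and DDX60 were lower with p73 shRNA, by -1.25 and -0.35. Among all genes tested 20.4% rose at confluence and 16.1% fell. After quantile normalization 18 ISGF3 targets and 13 targets of the other list rose at confluence, and 21 and 12 with no intensity trend.

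**Figure D3:**
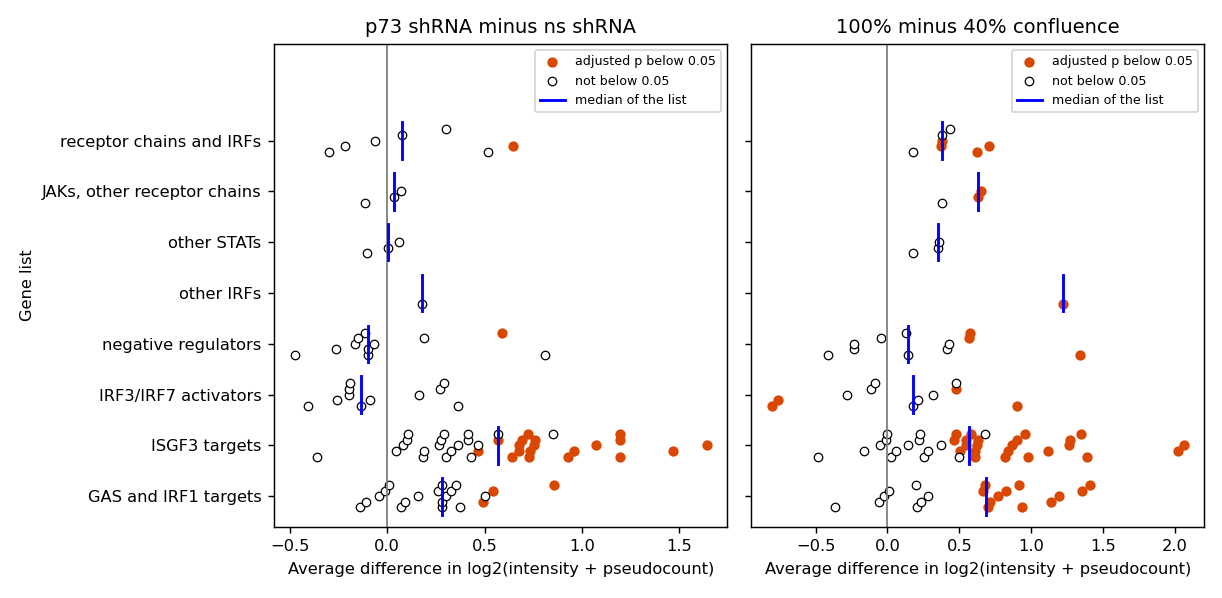
Average difference in log2(intensity + pseudocount) of each gene above the filter, by gene list, p73 shRNA minus ns shRNA on the left and 100% minus 40% confluence on the right. Filled points have a limma adjusted p below 0.05 and blue bars are list medians. On the left filled points lie mainly among the ISGF3 targets (19 of 38), and on the right they are spread over most lists, with 4 of the 7 receptor chains and IRFs filled. Of all genes tested, 1.14% were called higher with p73 shRNA and 20.4% at confluence.

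The genes with the pattern most like that of a member were sought for the 3 whose values spanned at least 1 on the log2 scale, IFNAR2, IRF7 and IRF9. Likeness was the Euclidean distance between log2 values centred on the mean of the 4 arrays, over 6758 other genes. Nearest to IRF9 were ADIRF (distance 0.05), FHOD3 (0.11) and QPRT (0.12). ADIRF had intensities of 239 (ns) and 377 (p73 shRNA) at 40% and of 324 and 516 at 100%, higher with p73 shRNA at each stage as IRF9 was.

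Nearest to IRF7 were PSME1 (distance 0.07), KDM4A (0.09) and GMPR (0.10). PSME1, a subunit of the proteasome activator PA28, had intensities of 1605 (ns) and 2401 (p73 shRNA) at 40% and of 2736 and 3616 at 100%. Nearest to IFNAR2 were GPR137B (0.09), GSTT1 (0.13) and ZNF331 (0.13). GPR137B also peaked with ns shRNA at 100%, at 214, with 103 to 149 elsewhere. Patterns over 4 arrays are short, and these genes are named as a description.

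**Figure D4:**
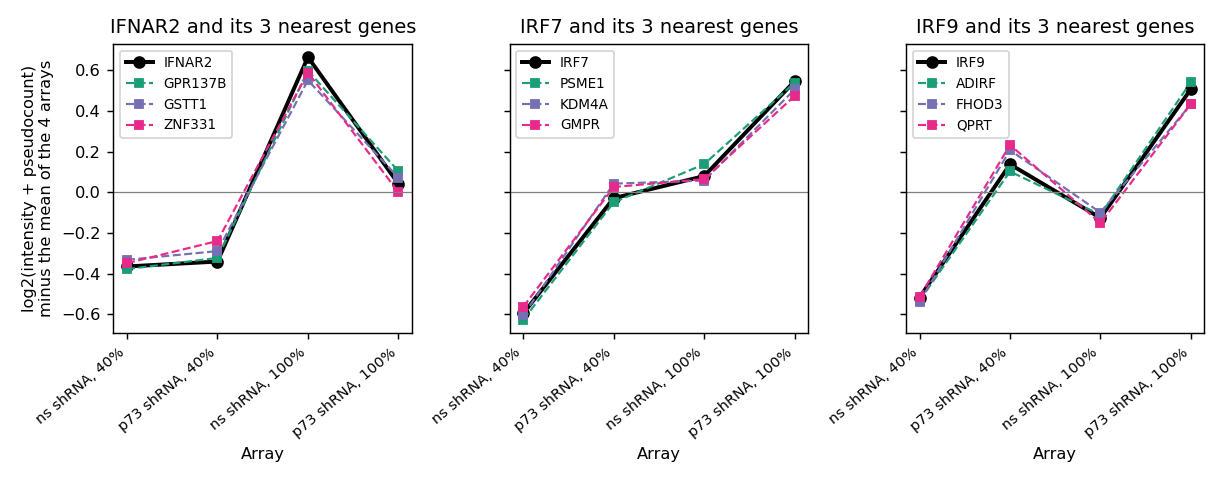
Values of IFNAR2, IRF7 and IRF9 (black) and of the 3 genes nearest to each (dashed) on the 4 arrays, as log2(intensity + pseudocount) minus the mean of the arrays. IFNAR2 peaks with ns shRNA at 100% confluence, IRF7 is lowest with ns shRNA at 40% and highest with p73 shRNA at 100%, and IRF9 has both p73 shRNA arrays above both controls.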

How the data were processed

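Per the labels, trizol was used to extract RNA, which received a biotin label in Affymetrix's standard way. The authors deposited 1 intensity per probe set and array. No source used here gives the software behind it, and the common trimmed mean of the arrays was read from the values. Such scaling hides a change shared by most genes. Arrays were grouped by their titles, and separate cultures are not stated, so p-values describe how these 4 arrays vary, which may be technical.

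Of 22277 probe sets 62 controls were left out. In the platform annotation 19064 had 1 gene, 1043 several and 2108 were not listed; 19052 were matched by Entrez ID to RefSeq symbols. The pseudocount of 11.5 is the 20th percentile of all intensities, and the filter is the median over probe sets. A gene took its brightest probe set. The test was limma 3.58.1 in R 4.3.3 with an intensity trend, two-sided, with 1 residual degree of freedom. The prior degrees of freedom were infinite, so a gene's error is the average at its brightness (15.8 without the trend). Suffixes _s and _x mark probe sets that can match several transcripts.

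The genes, lists and tests were chosen with earlier results of these data known. Named were all members, of each list the called genes up to the 4 largest per comparison (any gene in lists of 8 or fewer measured), the 3 nearest genes of members spanning 1 or more on the log2 scale, and cell type markers. USP18, PTPN2, TBK1 and MAVS were added after their values were seen. Alternatives were quantile normalization, pseudocounts at the 5th and 40th percentiles, no filter, a filter at the 70th percentile, averaging a gene's probe sets, every probe set as a row, no trend, and the other factor left out. Figures used matplotlib 3.10.9.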

Additional observations from a re-analysis of the deposited data

Results flagged for a closer look

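The p73 shRNA ratio had opposite signs at the stages of confluence for 3 of the 7 tested genes, and none of these differences was tested, since each group is 1 array. The share of all genes tested with opposite signs was not counted, so 3 of 7 is a description only. At both stages 29.0% of all genes tested were higher with p73 shRNA. IFNAR2 had a log2 ratio of 0.02 at 40% and of -0.62 at 100%. IFNGR2 had 0.22 and -0.07, and IRF3 had -0.13 and 0.01. Of these only the IFNAR2 value at 100% was larger than 0.5 in size, and its second probe set gave -0.10 and -0.31.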

How the results depend on the processing

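No tested gene changed direction in either comparison under the alternatives. Settings that change only the filter, the trend, the fitted factors or the rows tested leave each ratio the same by design. Such settings could not reverse a direction. Of 120 values 104 stayed on their side of the threshold and 16 lost their call. The 104 include values uncalled in the main fit that stayed uncalled. With p73 shRNA the count of members called was 1 and fell to 0 without the brightness filter, with the mean of probe sets, without the intensity trend and with confluence left out of limma, where 2, 3, 2 and 0 members had an unadjusted p below 0.05. IRF9 has 1 probe set, so its value of 0.64 was the same in those settings and the pooled spread differed. At confluence the count was 4 and became 0 without the filter and with the hairpin left out of limma (5 and 4 members at an unadjusted p below 0.05), and 2 without the trend and with the filter at the 70th percentile, where 4 members were tested. Over all genes 184 were called with p73 shRNA, against 105 after quantile normalization, 74 without the trend, 39 with the mean of probe sets, 4 without the filter and 0 with confluence left out (58 at an unadjusted p below 0.05). At confluence 2471 were called, against 1555 without the filter and 1345 with the hairpin left out. The cause was not tested. No array could be left out, because 3 arrays leave no residual degree of freedom. No paired analysis was possible because each group has 1 array and the labels give no shared replicate numbers. The brightness filter leaves IFNAR1 untested except in the setting without it, where it was not called in either comparison.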
